A study of Mus musculus with 25 samples.

Results

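The cortex of salviolone-treated mice of an amyloid model was compared with the cortex of wild type mice, to describe what of the model's difference from wild type was present under the compound. The libraries were chosen by their labels alone, 5 salviolone mice and 5 wild type mice, which are 10 of the 25 RNA-seq libraries in the series. The salviolone mice were B6C3 transgenics that carry APPswe among their transgenes, and they received salviolone at 5 mg/kg by daily intraperitoneal injection for 3 months. The model control mice, 5 transgenics of the same strain given vehicle, are set beside them where the difference between salviolone and vehicle matters. The wild type mice were C57BL/6J given vehicle. All were males aged 6 months at sampling, and each library came from a separate mouse (n = 5 per group). Strain and transgene differ together between the transgenic and the wild type mice, and their parts in a difference cannot be told apart. Both other treated groups of the series, vestitol and the combination of the compounds, entered the fit and share its estimate of the spread.

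Salviolone is a diterpenoid of Salvia species. In the model, an App transgene, part mouse and part human and with the Swedish mutation, is driven by the mouse Prnp promoter, which is active in neurons and several other cell types, and amyloid plaques form in the cortex with age. Microglia gather at plaques and switch on a set of genes for lipid sensing, phagocytosis and lysosomal degradation, among them Trem2, Tyrobp, Cst7 and Itgax. Astrocytes near plaques raise the intermediate filament gene Gfap, and complement genes such as C1qa and C4b are made by microglia and astrocytes. In bulk tissue, a change in the number of cells of a type and a change in RNA per cell cannot be told apart.

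Total counts per library were 59376320 to 72743740 with salviolone, 77772965 to 93132986 in the model control and 64008552 to 86378643 in wild type. Levels are CPM, counts scaled by the TMM-normalised library size, and differences are log2 fold changes with their standard error (SE). Calls were made at an adjusted p below 0.05 in the quasi-likelihood test of edgeR, adjusted by Benjamini-Hochberg across the 16515 genes tested. The cortical excitatory markers were present: Slc17a7, the vesicular glutamate transporter, was at 1292 ± 57.8 CPM with salviolone and 1279 ± 116 CPM in wild type, and Tbr1 was at 71.4 CPM or more in all 10 libraries. Several libraries stood apart by genes of neighbouring tissue. Wild type mouse 3 held pituitary transcripts, with a pituitary list score (mean log2 CPM of the list's genes) of 6.38 against at most -0.59 in the other 14 mice of the 3 groups. The hypothalamus and basal forebrain score was 0.39 to 0.99 with salviolone and 0.22 to 1.93 in the model control, but 1.78, 0.09, 3.41, 2.76 and 3.11 in wild type mice 1 to 5, so 4 wild type mice lay above every salviolone mouse and wild type mouse 2 below them.

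Between salviolone and wild type, 2934 of 16515 genes (17.8%) were called, 1374 raised (8.32% of those tested) and 1560 lowered (9.45%). The median size of the called log2 fold changes was 0.42, and the median over all genes was -0.01. Estimated changes of more than 2-fold were more frequent among the lowered genes, 322, than among the raised, 111. A test against a 1.5-fold minimum called 87 lowered and 30 raised genes. In the same fit, 1913 genes (11.6%) were called between model control and wild type, 887 raised (5.37%) and 1026 lowered (6.21%). Both comparisons use the same 5 wild type mice, so their values are given side by side and no likeness between them is counted. Only 4 genes (0.0242%) were called between salviolone and the model control, all lowered, while 1893 had an unadjusted p under 0.05. No member of the gene lists was among these 4. With the hypothalamus score as a covariate, 751 genes were called between salviolone and wild type. Where a list is said to lose calls with a covariate, its median log2 fold change under that covariate is given too.

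Both transgenic groups had raised App and Prnp. App (chromosome 16, 84746573 to 84970654, mm39), which encodes the amyloid precursor protein, stood at 3979, 4439, 4965, 5066 and 4576 CPM in the salviolone mice, at 3897, 3903, 4295, 4579 and 4634 CPM in the model control and at 1727, 1800.2, 1383, 1724 and 1724 CPM in wild type. Every transgenic mouse lay far above every wild type mouse, and the salviolone and model control ranges overlapped. The log2 fold change from wild type was 1.46 ± 0.08 with salviolone (adjusted p = 1.0e-12) and 1.35 ± 0.08 in the model control, and the difference between salviolone and the model control was 0.11 with a 95% interval of -0.04 to 0.26. Reads of the transgene and of the mouse gene are counted together. Prnp (chromosome 2, 131751848 to 131780349), the source of the transgene's promoter, ranged from 1685 to 2001 CPM with salviolone, from 1656 to 2028 CPM in the model control and from 591 to 699 CPM in wild type, a log2 fold change of 1.52 ± 0.07 with salviolone against wild type.

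**Figure D1:**
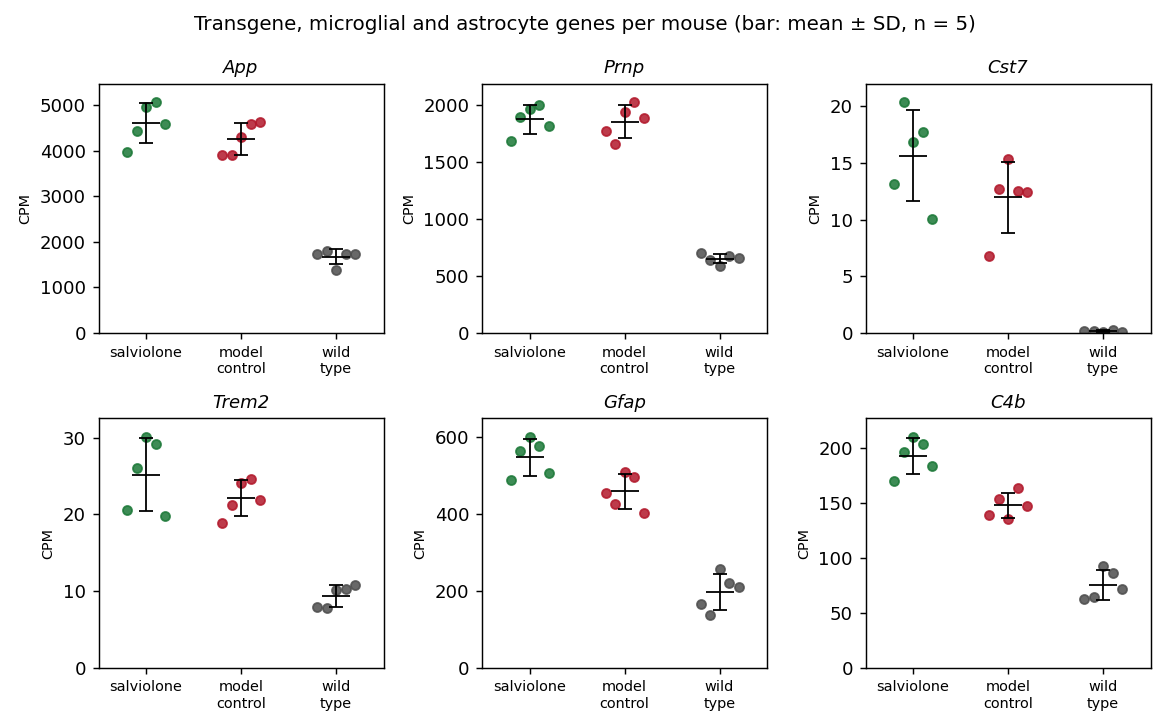
CPM per mouse (vertical axes, from 0) of the transgene markers App and Prnp, the microglial genes Cst7 and Trem2, and the astrocyte and complement genes Gfap and C4b in salviolone, model control and wild type mice; points are mice and bars the mean ± SD (n = 5). All 5 salviolone mice lie above all 5 wild type mice in each panel, and for C4b also above all 5 model control mice.

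Genes of plaque-associated microglia were raised under salviolone. Of the 30 genes of that list, all of them tested, 22 rose, none fell and 8 did not pass the test, with a median log2 fold change of 1.00. Over all tested genes, 8.32% rose and the median was -0.01. In the model control, 18 of the 30 rose, with a median of 0.71, where 5.37% of all tested genes rose. Salviolone minus model control had a list median of 0.15, none of the 30 was called (0.0242% of all tested genes were), and the 95% interval lay above 0 for 2 of them. The list score was 3.77 to 4.27 with salviolone, 3.71 to 3.99 in the model control and 2.47 to 2.78 in wild type. For 20 of the 30 genes all salviolone mice lay above all wild type mice, as did 4.11% of all tested genes.

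Cst7 (chromosome 2, 150412335 to 150420864), a cystatin that inhibits lysosomal cysteine proteases, was the most strongly raised of the genes named by rank. It was at 13.1, 20.4, 16.8, 17.7 and 10.1 CPM with salviolone, 6.83, 12.7, 15.4, 12.5 and 12.5 CPM in the model control and at 0.203, 0.176, 0.0730, 0.277 and 0.127 CPM in wild type. Wild type cortex held almost none, and the lowest salviolone mouse was far above the highest wild type mouse. The log2 fold change from wild type was 6.48 ± 0.44 with salviolone (adjusted p = 3.2e-09) and 6.10 ± 0.43 in the model control, and salviolone differed from the model control by 0.38 (95% interval -0.26 to 1.02). The 150 bases before the start site of Cst7 are printed because it is the marker with the largest change; they are from RefSeq, build GRCm38.p6, plus strand, chr2:150570265-150570414. The 8 letters GAGGAAGT, a core of the motif of the microglial factor PU.1, were searched on both strands in the 250 bases before each start site, and no letters are in capitals because none matched here.
Cst7: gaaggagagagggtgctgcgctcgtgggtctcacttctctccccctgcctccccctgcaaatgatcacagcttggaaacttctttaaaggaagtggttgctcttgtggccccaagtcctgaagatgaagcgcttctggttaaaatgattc
GAGGAAGT occurred in 1 of 26 windows of the list (Spp1, 3.85%), in 0 of 18 windows of its raised members and in 802 of all 32851 windows (2.44%). That the letters are missing from a window says nothing about the factor.

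Itgax, the gene of the integrin CD11c, was at 6.68, 18.4, 11.4, 9.57 and 8.18 CPM with salviolone, 7.28, 7.09, 9.29, 7.94 and 8.96 CPM in the model control and at 0.250, 0.132, 0.774, 0.277 and 0.532 CPM in wild type. Salviolone mouse 2 was the highest of all, and the log2 fold change from wild type was 4.78 ± 0.39. Trem2 (chromosome 17), the microglial lipid receptor, was at 20.6, 26, 30.1, 29.2 and 19.8 CPM with salviolone, 18.9, 21.2, 24.2, 24.6 and 21.9 CPM in the model control and at 7.92, 7.80, 10.1, 10.3 and 10.8 CPM in wild type. All transgenic mice lay above all wild type mice, and salviolone overlapped the model control. Trem2 differed from wild type by 1.42 ± 0.16 with salviolone (adjusted p = 6.8e-06) and by 1.24 ± 0.16 in the model control, and salviolone minus model control was 0.18 (95% interval -0.15 to 0.51). Tyrobp, the adaptor through which Trem2 signals, was at 25.5, 34.6, 40.6, 34.1 and 26.1 CPM with salviolone, 21.4, 24.2, 30.3, 26 and 25.1 CPM in the model control and at 10.6, 8.39, 12.6, 12.9 and 10.8 CPM in wild type. Its difference between salviolone and the model control, 0.34, had an interval of 0.02 to 0.66 before adjustment, and it was not called (adjusted p = 0.402).

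Other members filled out the group. The lectin receptor gene Clec7a was at 1.29 ± 0.0481 CPM with salviolone and 0.149 ± 0.131 CPM in wild type, the lysozyme gene Lyz2 at 25.7 ± 5.30 and 10.1 ± 2.62 CPM, and the tetraspanin gene Cd9 at 57.1 ± 3.78 and 33.8 ± 2.75 CPM. The chemokine genes Ccl6, Ccl3 and Ccl4 rose by 2.38 ± 0.37, 2.96 ± 0.66 and 3.93 ± 0.95. Lilrb4a, an inhibitory receptor gene, was at 0 counts in all 5 wild type libraries and in salviolone mouse 1. Its mean with salviolone, 0.300 CPM, was at least 6.40-fold higher than the limit that a count of 0 allows, 3 counts in the shallowest wild type library, and the list median is 1.00 with this gene at that bound too. The 8 members that did not pass the test include Spp1, which encodes osteopontin, at 14 ± 8.26 CPM with salviolone and 16.6 ± 8.16 CPM in wild type, and Lpl, the lipoprotein lipase gene, at 21.1 ± 4.39 and 20.9 ± 4.30 CPM. Gpnmb, another lysosomal glycoprotein gene, was at 8.67 ± 5.74 and 4.21 ± 0.600 CPM (log2 fold change 1.04 ± 0.39, adjusted p = 0.0683). Lyz2 and the chemokine genes have close paralogs between which counting may split reads.

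The count of raised plaque-associated genes was 18 with the hypothalamus covariate and 19 to 23 with single mice left out. It was 17 with the hypothalamus, striatum and choroid plexus scores together as covariates, an alternative chosen after seeing the data. The list median was 0.97 and 0.96 under these covariates, against 1.00 without them.

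Homeostatic microglial genes were called at a share near that of all genes, 14.3% against 17.8%. Of 14, 2 rose, among them the transcription factor gene Mef2c, which neurons also express, and none fell, with a median of 0.10. Without salviolone mouse 1, 4 rose, and 1 did when salviolone mouse 2 or 5 or wild type mouse 4 was left out. Under the hypothalamus covariate 1 rose and 1 fell (median 0.21). The surveillance receptor gene P2ry12 was at 18.2 ± 3.01 CPM with salviolone and 17.7 ± 4.03 CPM in wild type, and Tmem119 at 22.3 ± 3.41 and 22.2 ± 2.46 CPM. The fractalkine receptor gene Cx3cr1 was at 13.4 ± 3.63 and 21.1 ± 17.1 CPM and not called. Among 14 phagocytic and Fc receptor genes, 8 rose and none fell (median 0.53), against 7 in the model control (median 0.62). Over all tested genes, 8.32% rose with salviolone and 5.37% in the model control. The 8 include Fcer1g, the shared signalling chain of Fc receptors (1.00 ± 0.17), and Fcgr3 (0.52 ± 0.12). The 6 others were not called, and the lowest member was at -2.57. The list score overlapped, at 1.03 to 1.91 with salviolone and 0.85 to 1.81 in wild type. With the hypothalamus covariate 4 rose, and with the 3 scores 1, while the list median was 0.76 and 0.65.

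Many lysosomal genes rose as well. Of 20 genes, 13 rose and none fell (65% called, against 17.8% of all tested genes), with a median of 0.26. In the model control 10 rose (median 0.27). Ctsd (chromosome 7, 141929648 to 141941775), which encodes the aspartic protease cathepsin D, was at 643, 759, 690.5, 762 and 614 CPM with salviolone, 551, 669, 633, 639 and 606 CPM in the model control and at 358, 365, 406, 384 and 384 CPM in wild type. The lowest salviolone mouse was far above the highest wild type mouse (log2 fold change 0.87 ± 0.09, adjusted p = 6.7e-07). Ctsz, another cathepsin gene, was at 63.8 ± 5.86 CPM with salviolone and 32.5 ± 3.74 CPM in wild type, and Cd68, a lysosomal membrane protein gene of phagocytes, at 18.9 ± 1.60 and 9.20 ± 1.13 CPM. The hydrolase genes Gusb and Hexa rose by 0.64 ± 0.09 and 0.42 ± 0.07, and Lamp2, a structural membrane protein gene of lysosomes in most cells, by 0.24 ± 0.06. Of the 13 raised genes, Ctsb, Ctsd, Ctsl and Ctsz are among those also in the list of plaque-associated microglia. The number that rose was 10 with the hypothalamus covariate (median 0.34).

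Gfap was among the reactive astrocyte genes that rose. Of 22, 4 rose (18.2%) and none fell, with a median of 0.27, and the model control also had 4 (median 0.05). Of all tested genes 8.32% rose with salviolone and 17.8% were called in either direction. The 18 others were not called, and members ran from -2.63 to 3.20. The list score was 1.75 to 2.00 with salviolone and 1.36 to 2.16 in wild type, where mouse 3 lay above every salviolone mouse. With the hypothalamus covariate 3 reactive astrocyte genes rose (median 0.37). Gfap (chromosome 11, 102778162 to 102788026) was at 487, 563, 599, 576 and 505 CPM with salviolone, 455, 426, 509, 496 and 403 CPM in the model control and at 165, 137, 255, 221 and 210.1 CPM in wild type. All salviolone mice lay above all wild type mice, and 3 of them above every model control mouse. The log2 fold change from wild type was 1.47 ± 0.15 with salviolone (adjusted p = 2.4e-06) and 1.21 ± 0.15 in the model control, and the difference between the 2 transgenic groups was 0.26 (95% interval -0.05 to 0.56). Serpina3n, a secreted serpin gene with close paralogs, was at 31.4, 31, 35.3, 42.5 and 32.8 CPM with salviolone and 12.2, 16.9, 14.7, 16.2 and 18.2 CPM in wild type, with no overlap (1.14 ± 0.15). The chemokine gene Cxcl10 and the asparaginase gene Aspg were the other members that rose (3.20 ± 0.56 and 0.65 ± 0.16). General astrocyte genes held 1 call: of 14, the glutamate transporter gene Slc1a3 fell (-0.25 ± 0.06), and the list median was 0.02. That is 7.14% of the list, where 9.45% of all tested genes fell. Without wild type mouse 2 there were 3 lowered genes, and none fell and 1 rose with the hypothalamus covariate (median 0.07).

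Of 17 complement genes, 7 rose and 1 fell (47.1% called, against 17.8% of all tested genes), with a median of 0.48. In the model control 7 rose and 0 fell (median 0.56). C4b, which encodes the cleaved component of the classical pathway, was at 169, 196, 210.0, 204 and 183 CPM with salviolone, 139, 153, 136, 163 and 147 CPM in the model control and at 62.7, 63.9, 92.6, 86.1 and 71.4 CPM in wild type. All salviolone mice lay above all model control mice, as for 1.14% of tested genes, and all of both groups above all wild type mice. The log2 fold change from wild type was 1.35 ± 0.15 with salviolone and 0.97 ± 0.15 in the model control, and their difference, 0.38 (95% interval 0.08 to 0.69), was not called (adjusted p = 0.316). C4b has a near-identical copy in the genome between which counting may split reads. C1qa, C1qb and C1qc, the chains of the initiating complex, rose, with C1qa at 60.3 ± 12.2 CPM with salviolone and 30.3 ± 3.73 CPM in wild type. The lowered member was Cfb, factor B of the alternative pathway (-0.51 ± 0.17), whose call was lost without wild type mouse 2, 3, 4 or 5 and without salviolone mouse 1, 4 or 5. With the 3 scores as covariates, 3 complement genes rose, with a list median of 0.51, and C4b differed from wild type by 1.56 (adjusted p = 5.8e-04).

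Interferon-response genes had a median above 0, and 17.4% of them rose. Of all tested genes 8.32% rose and 17.8% were called in either direction. Of 23 genes, 4 rose (Ifit2, Ifi44, Lgals3bp and Stat2) and none fell, with a median of 0.42, against 7 and 0.64 in the model control. No member was called between salviolone and the model control (median -0.17). Ifit2, an interferon-induced RNA-binding protein gene, rose by 0.38 ± 0.11, and Stat2, a signal transducer of type I interferon, by 0.23 ± 0.08. The number depended on single mice: 8 without salviolone mouse 1, 1 without salviolone mouse 2, 0 without salviolone mouse 3, 2 without wild type mouse 1, 2 or 5 and 1 when wild type mouse 4 was left out. It was 0 with the hypothalamus covariate, with a median of 0.62. Of 12 class I presentation genes, B2m and H2-T23 rose (0.65 ± 0.16 and 0.75 ± 0.14), and of 17 chemokine and Toll-like receptor genes 6 rose, among them Tlr2, a receptor for microbial lipopeptides and amyloid (0.82 ± 0.23), and Ccl6. The shares called, 16.7% and 35.3%, compare with 17.8% of all tested genes. H2-T23 belongs to a family of near-identical genes. These counts were 1 and 3 with the hypothalamus covariate, while the list medians were 0.35 and 0.59, against 0.28 and 0.30 without it.

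**Figure D2:**
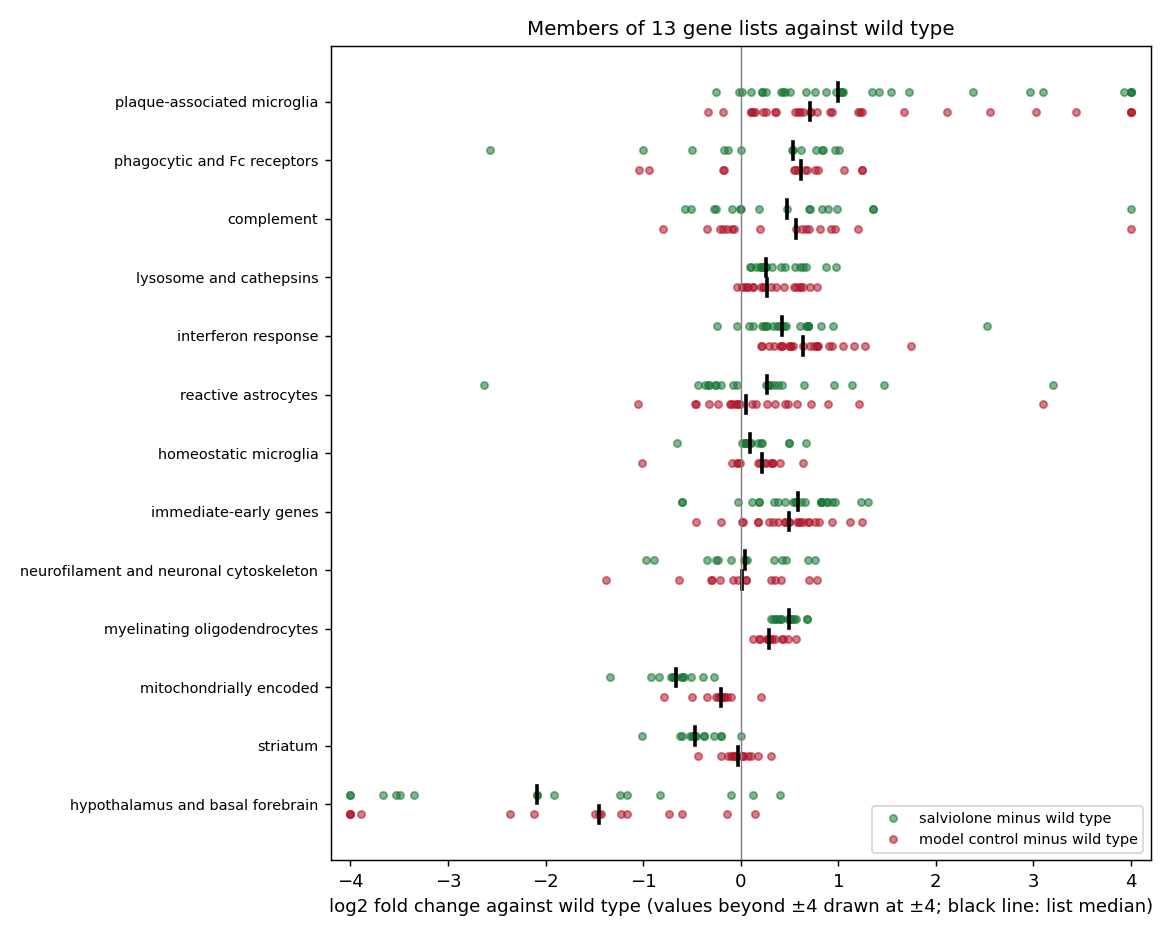
Log2 fold change from wild type (horizontal axis, values beyond 4 in size drawn at the edge) of each member of 13 gene lists (rows), for salviolone above and model control below in each row; points are genes and black lines list medians. The median of plaque-associated microglia is 1.00 with salviolone and 0.71 in the model control, and that of the mitochondrially encoded genes is -0.67 and -0.20.

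The genes of the mitochondrial genome, which encode core subunits of the respiratory chain and the ATP synthase, were lower under salviolone. Of 13, 12 fell and none rose (92.3% called, against 17.8% of all tested genes), with a median log2 fold change of -0.67. In the model control 2 fell and the median was -0.20. The median of salviolone minus model control was -0.46, and none of the 13 was called there, although all 13 had an unadjusted p under 0.05. For 11 of the 13 all salviolone mice lay below all wild type mice, as for 4.45% of tested genes, and for 2 also below all model control mice, as for 1.22% of tested genes.

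mt-Co3 (chromosome M, 8607 to 9390), a catalytic-core subunit gene of complex IV, was at 117, 106, 85.6, 82.9 and 79.9 CPM with salviolone, 163, 135, 123, 103 and 106 CPM in the model control and at 190.1, 160.2, 197, 180.2 and 164 CPM in wild type. The salviolone mice all lay below the wild type mice, and the model control mice lay between them, overlapping both groups. The log2 fold change from wild type was -0.92 ± 0.12 with salviolone (adjusted p = 2.1e-05) and -0.50 ± 0.11 in the model control, and salviolone minus model control was -0.42 (95% interval -0.66 to -0.18, adjusted p = 0.167). mt-Nd5, a complex I subunit gene, was at 653, 672, 508, 536 and 547 CPM with salviolone, 1036, 856, 763, 674 and 697 CPM in the model control and at 1025, 880.2, 976, 943 and 963 CPM in wild type. Every salviolone mouse was below every mouse of both other groups, and salviolone minus model control was -0.46 (95% interval -0.67 to -0.26, adjusted p = 0.0712). mt-Cytb, the cytochrome b gene of complex III, was at 436, 392, 326, 300.4 and 279 CPM with salviolone, 615, 534, 465, 406 and 413 CPM in the model control and at 641, 541, 680.0, 624 and 606 CPM in wild type. All salviolone mice were below all wild type mice, with 1 salviolone mouse inside the model control range. The largest fall was in mt-Atp8 (-1.34 ± 0.16), an ATP synthase subunit gene at 32.4 ± 5.10 CPM with salviolone, 47.7 ± 7.89 CPM in the model control and at 82.1 ± 25.7 CPM in wild type, which overlaps mt-Atp6, so the reads of the pair cannot be fully told apart. The same holds for mt-Nd4l and mt-Nd4. The member not called was mt-Co1, the catalytic subunit of complex IV, at 3099.9, 2846, 1959, 1892 and 1753 CPM with salviolone and 3075, 2968, 3071, 2218 and 2587 CPM in wild type. Its salviolone mice 1 and 2 lay within or above the wild type range and mice 3 to 5 below it (-0.27 ± 0.13, adjusted p = 0.176).

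**Figure D3:**
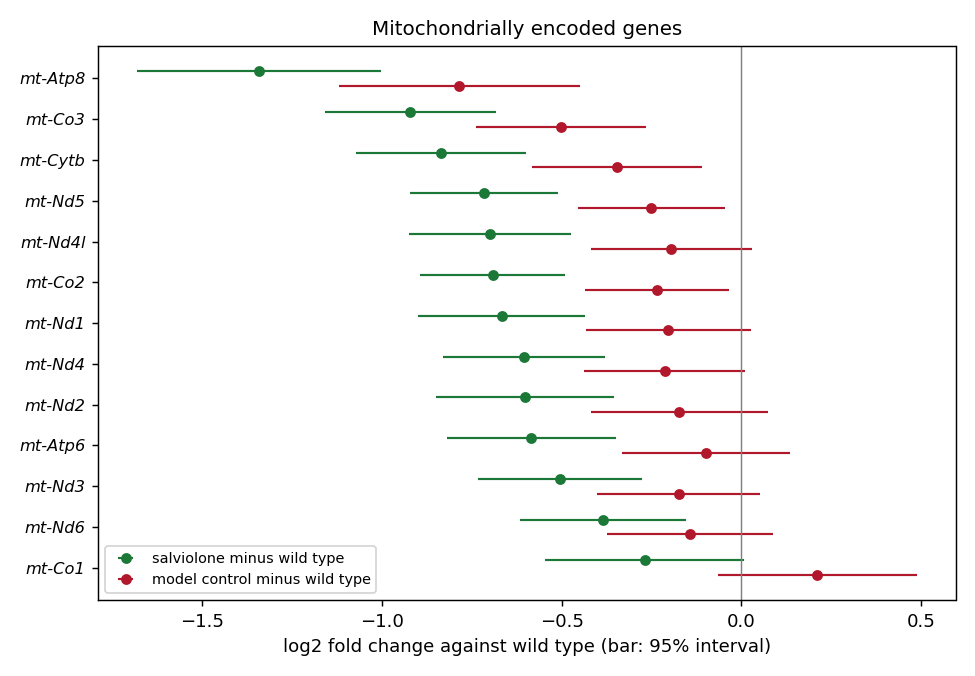
Log2 fold change from wild type with its 95% interval (horizontal axis) of the 13 mitochondrially encoded genes (rows), for salviolone above and the model control below in each row. The 12 called with salviolone run from -1.34 (mt-Atp8) to -0.38 (mt-Nd6), and mt-Co1, at -0.27, has an interval that reaches 0.

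Mitochondrially encoded genes took 0.409% to 0.620% of all counts with salviolone (mean 0.493% ± 0.0988), 0.561% to 0.816% in the model control (0.677% ± 0.102) and 0.637% to 0.790% in wild type (0.707% ± 0.0600). The salviolone and wild type shares did not overlap, and the model control overlapped both. Outside these groups, the share was 0.755% to 0.829% with vestitol and 0.475% to 0.604% with the combination. Within the salviolone and the model control group the share fell in order from mouse 1 to mouse 5. The part of RNA selection and dissection in these shares was not tested. The number of lowered genes was 11 to 13 with single mice left out, 10 with the hypothalamus covariate and 8 with the 3 scores (list medians -0.52 and -0.58). Of the oxidative phosphorylation genes in the nuclear genome none fell: of 21, 9 rose, with a list median of 0.13, against 4 and 0.09 in the model control. The 42.9% called compare with 17.8% of all tested genes. None of the 21 was called between salviolone and the model control (median 0.07). Uqcrc1, a complex III core gene, was at 263 ± 8.12 CPM with salviolone, 243 ± 13.5 CPM in the model control and at 231 ± 11.3 CPM in wild type (0.19 ± 0.04). The complex I gene Ndufa5 and Cycs, which encodes cytochrome c, rose by 0.34 ± 0.07 and 0.16 ± 0.05. Under the hypothalamus covariate 2 of the 21 rose (median 0.10), and 5 did when the 10 mice were fitted alone.

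Immediate-early genes, which neurons switch on within minutes of activity, were higher. Of 24, 13 rose and 1 fell (58.3% called, against 17.8% of all tested genes), with a median of 0.59. In the model control 9 rose and 1 fell (median 0.50). Arc, which encodes a synaptic protein that captures its own mRNA, was at 516, 619, 420.2, 433 and 610.1 CPM with salviolone, 294, 446, 637, 486 and 634 CPM in the model control and at 144, 394, 158, 145 and 213 CPM in wild type. Wild type mouse 2 stood far above the other wild type mice and below the lowest salviolone mouse, and the log2 fold change was 1.30 ± 0.33 (adjusted p = 0.00921). Egr3, a zinc-finger transcription factor gene, was at 202, 241, 189, 235 and 289 CPM with salviolone and 136, 192, 126, 135 and 143 CPM in wild type, where mouse 2 was again the highest and overlapped the salviolone range (0.66 ± 0.15). The nuclear receptor gene Nr4a1, Ier2 and Inhba, a subunit gene of activin, rose by 0.97 ± 0.22, 1.23 ± 0.24 and 0.82 ± 0.16, and Jun, a subunit gene of AP-1, fell by 0.61 ± 0.14. Wild type mouse 2 is also the wild type mouse with the lowest hypothalamus score, and 3 genes rose with that score as a covariate and 2 with the 3 scores (list medians 0.38 and 0.49). Between 11 and 14 rose with single mice left out, and 2 fell without salviolone mouse 5.

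Dusp1, a phosphatase gene that ends MAP kinase signals and is a raised member, was at 62.9 ± 9.59 CPM with salviolone, 57.9 ± 10.0 CPM in the model control and at 41 ± 4.61 CPM in wild type (0.62 ± 0.17). Its sequence before the start site is shown because it holds TGACGTCA, the full cAMP response element bound by CREB, in capitals, from base 143 before the start site. It is from RefSeq, build GRCm38.p6, minus strand, chr17:26508473-26508622.
Dusp1: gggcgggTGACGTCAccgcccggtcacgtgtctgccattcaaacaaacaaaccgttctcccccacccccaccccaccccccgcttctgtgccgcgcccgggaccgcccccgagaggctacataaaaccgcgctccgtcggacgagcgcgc
These 8 letters, searched in the 250 bases before each start site on both strands (the element reads the same on both), occurred in 2 of 30 windows of the list (6.67%, Dusp1 and Btg2), in 1 of 10 windows of its raised members and in 508 of all 32851 windows (1.55%). A match is a description of the sequence and does not show that the site is used.

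Neuronal structural and synaptic genes moved in both directions. Of 14 neurofilament and cytoskeleton genes, 4 rose and 4 fell (57.1% called, against 17.8% of all tested genes), with a median of 0.04. The raised members were the neurofilament subunit genes Nefl, Nefm and Nefh and the related filament gene Ina. Nefl was at 418, 419, 399, 430.4 and 401 CPM with salviolone, 364, 426, 398, 386 and 398 CPM in the model control and at 293, 343, 291, 296 and 322 CPM in wild type. Salviolone mice all lay above wild type mice, a log2 fold change of 0.42 ± 0.05 (adjusted p = 6.8e-06), and overlapped the model control. Nefm rose by 0.69 ± 0.11 and Nefh by 0.76 ± 0.18. The lowered members were Map2, a dendritic microtubule protein gene (-0.35 ± 0.07), the growth cone gene Gap43 (-0.89 ± 0.14), Tuba1a and Uchl1. With the hypothalamus covariate, 3 rose and 2 fell (median 0.02).

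Of 22 excitatory synapse genes, 3 rose and 5 fell (median -0.01), 36.4% of the list, where 17.8% of all tested genes were called. Nrgn, a calmodulin-binding postsynaptic protein gene, was at 857 ± 61.7 CPM with salviolone and 572 ± 92.5 CPM in wild type and rose by 0.58 ± 0.10. Syn2, a synaptic vesicle phosphoprotein gene, was at 491 ± 17.7 and 733 ± 124 CPM and fell by 0.58 ± 0.09. Dlg4, the postsynaptic scaffold gene, fell by 0.21 ± 0.05, with -0.05 ± 0.05 in the model control. The vesicle gene Syp was at 1601 ± 61.6 and 1648 ± 109 CPM and was not called. Without wild type mouse 2, 5 rose. Of 15 inhibitory neuron genes (46.7% called), 4 rose, among them Pvalb, Npy and Vip, and 3 fell (Reln, Gad2 and Sst). The median was -0.03, and 5 fell without wild type mouse 2. Pvalb, the calcium buffer of fast-spiking interneurons, was at 87.1 ± 13 CPM with salviolone and 43.6 ± 22 CPM in wild type (1.00 ± 0.24), and Sst, the somatostatin gene of other interneurons, at 77.2 ± 5.52 and 95 ± 9.28 CPM (-0.30 ± 0.09). With the hypothalamus covariate, the counts raised and lowered were 1 and 3 for excitatory synapse genes and 0 and 1 for inhibitory neuron genes. The list medians were -0.09 and -0.002.

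Of 15 cholinergic genes, 3 rose and 4 fell, with a median of -0.13, against 1 and 0 in the model control. The 46.7% called compare with 17.8% of all tested genes. None of the 15 was called between salviolone and the model control (median -0.01). The lowered genes mark cholinergic neurons themselves. Chat, which encodes the enzyme that makes acetylcholine, was at 3.15, 5.18, 3.24, 5.01 and 3.99 CPM with salviolone, 8.40, 7.12, 7.07, 6.32 and 4.31 CPM in the model control and at 6.85, 6.58, 7.13, 13.3 and 12 CPM in wild type. All salviolone mice lay below all wild type mice, and the model control overlapped both. Chat fell by 1.16 ± 0.25 with salviolone (adjusted p = 0.00193), with -0.47 ± 0.24 in the model control, and salviolone minus model control was -0.69 (95% interval -1.20 to -0.19, adjusted p = 0.273). The choline transporter gene Slc5a7 and the neurotrophin receptor gene Ngfr fell, with log2 fold changes of -1.03 ± 0.29 and -1.48 ± 0.42. The muscarinic receptor gene Chrm2 rose (0.69 ± 0.11), and Chrm1, the main muscarinic receptor of cortex, was at 160.5 ± 16.4 and 187 ± 18.4 CPM and was not called. Without wild type mouse 4, 1 cholinergic gene fell. None fell and 1 rose with the hypothalamus covariate (median -0.07).

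Of 20 genes of amyloid processing and clearance, 4 rose and 2 fell (30% called, against 17.8% of all tested genes), with a median of 0.06. Sorl1, a sorting receptor gene of the precursor protein, was at 748, 770.4, 788, 755 and 802 CPM with salviolone, 642, 826, 679.5, 715 and 753 CPM in the model control and at 536, 699, 396, 486 and 499 CPM in wild type. Each salviolone mouse exceeded each wild type mouse, among which mouse 2 was the highest (0.56 ± 0.10, adjusted p = 6.1e-04). Mme, which encodes the amyloid-degrading protease neprilysin, was at 4.10, 5, 4.26, 3.70 and 3.03 CPM with salviolone, 7.55, 9.81, 5.04, 6.40 and 6.21 CPM in the model control and at 5.51, 8.26, 3.27, 6.68 and 8.08 CPM in wild type. Every salviolone mouse lay below every model control mouse, while wild type mouse 3 was inside the salviolone range. Mme fell by 0.66 ± 0.22 against wild type, and the difference from the model control was -0.80 (95% interval -1.26 to -0.34, adjusted p = 0.171). The insulin-degrading enzyme gene Ide rose by 0.21 ± 0.05. Calls here depended on single mice: 2 rose without wild type mouse 1 or 4 or salviolone mouse 1, 4 or 5, and 1 fell without wild type mouse 2 or 5 or salviolone mouse 1, 3, 4 or 5, and none without wild type mouse 4. With the hypothalamus covariate 2 rose and 1 fell (median 0.09).

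Myelin genes were higher with salviolone than in wild type. Of 16, 9 rose and none fell, with a median of 0.49, against 2 and 0.29 in the model control. The share called was 56.2%, against 17.8% of all tested genes. Between salviolone and the model control none of the 16 was called, and the list median was 0.14. Cldn11, a tight-junction gene of myelin, was at 147, 148, 130.4, 124 and 129 CPM with salviolone, 118, 129, 61.6, 108 and 125 CPM in the model control and at 59.7, 104, 87.6, 71.3 and 101 CPM in wild type. The salviolone mice were all above the wild type mice, and model control mouse 3 was low. Cldn11 rose by 0.68 ± 0.16 with salviolone (adjusted p = 0.00491), and salviolone minus model control was 0.32 (95% interval -0.01 to 0.65). The connexin gene Gjb1 rose by 0.57 ± 0.16, and Mag and Mog, glycoprotein genes of the inner and outer faces of the sheath, by 0.52 ± 0.13 and 0.49 ± 0.15. The number of raised myelin genes was 6 to 10 with single mice left out, 7 with the hypothalamus covariate and 2 with the 3 scores. The list median was 0.54 and 0.61 under these covariates, and the log2 fold change of Cldn11 was 0.71 and 0.76 (adjusted p = 0.0421 and 0.0853). Of 12 precursor genes (41.7% called), Enpp6 rose and Pdgfra, Lhfpl3, Vcan and Cspg4 fell. Pdgfra, the receptor that defines precursors, was at 56.6 ± 5.69 CPM with salviolone and 84.7 ± 15.3 CPM in wild type (-0.58 ± 0.10). The number that fell was 1 or 2 without wild type mouse 3, 4 or 5 or salviolone mouse 1, 3, 4 or 5, while the number that rose was 0 without wild type mouse 1, 3 or 4 or salviolone mouse 1 or 2, and 2 without wild type mouse 2. None rose and 1 fell with the hypothalamus covariate, with a list median of 0.18, against -0.01 without it.

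Among stress, translation and metabolism lists, the share of genes called against wild type ran from 6.25% of the cholesterol synthesis list to 29.4% of the antioxidant list, where 17.8% of all tested genes were called. Of 18 unfolded protein response genes 5 rose, among them the translation-control factor gene Atf4 (0.37 ± 0.08) and the chaperone cofactor gene Sdf2l1 (0.76 ± 0.17), and 3 did without wild type mouse 4 or 5. Of 17 heat shock genes 2 rose, against 6 in the model control, and none was called between salviolone and the model control (list median -0.14). Of 20 ribosomal protein genes 2 rose, including Rpl13 at 192 ± 9.06 CPM with salviolone, 165 ± 5.50 CPM in the model control and at 169.7 ± 17 CPM in wild type. Of 17 antioxidant genes 4 rose and 1 fell. Gsr, the glutathione reductase gene, was at 45.4 ± 7.45 CPM with salviolone, 34.9 ± 1.47 CPM in the model control and at 34.6 ± 2.78 CPM in wild type (0.39 ± 0.11 against wild type), and Hmox1, the heme oxygenase gene, rose by 0.62 ± 0.16. Of 18 glucocorticoid-responsive genes 3 rose and 1 fell. The metallothionein gene Mt1 was at 107 ± 4.64 CPM with salviolone, 89.1 ± 5.65 CPM in the model control and at 85.2 ± 8.23 CPM in wild type (0.33 ± 0.07), while Fkbp5, a co-chaperone of the glucocorticoid receptor, fell (-0.33 ± 0.09). Of 17 clock genes 2 rose (Hlf by 0.74 ± 0.13, and Rorb), and of 16 cholesterol synthesis genes 1 did, Srebf2. Single mice moved several of these small counts. The number of raised heat shock genes was 1 without wild type mouse 1 or 4 or salviolone mouse 1, 2, 4 or 5. That of ribosomal protein genes was 0 without wild type mouse 1 or salviolone mouse 5, and 1 without wild type mouse 2, 4 or 5 or salviolone mouse 1, 3 or 4. Without salviolone mouse 3, 2 antioxidant genes rose, none fell without wild type mouse 4, and 5 glucocorticoid-responsive genes rose without wild type mouse 2. Srebf2 was not called without salviolone mouse 2, 3, 4 or 5 or wild type mouse 1 or 3. No antioxidant gene was called with the hypothalamus covariate (list median 0.11, against 0.08 without the covariate), 2 unfolded protein response genes rose (0.18, against 0.20), and 1 glucocorticoid-responsive gene rose and none fell (0.12, against 0.16). With it 1 heat shock and 1 clock gene rose (medians 0.06 and -0.03, against 0.15 and 0.06), and no cholesterol synthesis gene was called (0.01, against 0.06).

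Among the lowered genes with the smallest p, Lamb1 (chromosome 12, 31315233 to 31379643), a laminin chain gene of basement membranes, was at 16.9, 16.1, 19.1, 19.4 and 15.9 CPM with salviolone, 27, 18.3, 22.2, 18.8 and 19.4 CPM in the model control and at 39.2, 26.8, 33.9, 40.8 and 37.6 CPM in wild type. All salviolone mice lay below all wild type mice, with model control mice 1 and 3 above the salviolone range and the others at its upper end (-1.03 ± 0.12, adjusted p = 6.1e-06). Dgkb, a diacylglycerol kinase gene abundant in striatum, was at 83.8, 98.9, 87.5, 85.1 and 84.3 CPM with salviolone, 135, 119, 124, 114 and 95.1 CPM in the model control and at 165, 130.2, 126, 166 and 158 CPM in wild type. It was lowest with salviolone, with salviolone mouse 2 inside the model control range, and salviolone minus model control was -0.42 (95% interval -0.61 to -0.23, adjusted p = 0.0712). Usp11, a deubiquitinase gene, was at 143, 144, 155, 141 and 147 CPM with salviolone, 185, 143, 147, 159 and 141 CPM in the model control and at 248, 180.3, 214, 269.9 and 226 CPM in wild type. Salviolone and model control overlapped, and wild type mouse 2, the lowest of its group, was passed by model control mouse 1 alone (-0.64 ± 0.08). Camkv, a kinase-like synaptic protein gene, and Arf3, a Golgi GTPase gene, fell, with log2 fold changes of -0.57 ± 0.07 and -0.36 ± 0.05, as did Lmo7 and Erich3, with -0.64 ± 0.08 and -0.81 ± 0.10. Dnah5, an axonemal dynein gene of motile cilia, fell by 1.15 ± 0.15 and was 1 of 3 lowered members of the 12 ependyma genes, with Cfap44 and Dnah9. These were 25% of the list, where 9.45% of all tested genes fell. The same 3 genes fell in the model control, where 6.21% of all tested genes did. Csf3r, the receptor gene for granulocyte colony-stimulating factor, completes the raised genes of smallest p (1.13 ± 0.13).

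Of the lists of tissue next to the cortex, hypothalamus and basal forebrain, pituitary, striatum and hippocampus had medians below 0 against wild type. So did ependyma and meninges, at -0.29 and -0.20. Thalamus and choroid plexus had medians of 0.27 and 0.41. Over all tested genes 17.8% were called. In the hypothalamus and basal forebrain list, 9 of 15 fell and none rose (60% called), with a median of -2.08, against 6 and -1.46 in the model control. Hap1, abundant in hypothalamic neurons, was at 47.8, 38.1, 44.5, 43.5 and 40.9 CPM with salviolone, 119, 52.4, 64, 50.9 and 45.2 CPM in the model control and at 187, 53.8, 234, 253 and 182 CPM in wild type. Wild type mouse 2 lay close to the salviolone mice and the other wild type mice far above them (-2.08 ± 0.30, adjusted p = 1.4e-04). All 6 lowered genes of 8 in the pituitary list rested on wild type mouse 3, and none was called without it. Of 14 striatum genes, 6 fell and none rose (median -0.46), against none and -0.03 in the model control, where 1 gene had an unadjusted p under 0.05 in that direction. The 42.9% called compare with 17.8% of all tested genes. None of the 14 was called between salviolone and the model control (median -0.39). Penk, the enkephalin precursor gene, was at 90.8, 167, 121, 130.2 and 182 CPM with salviolone, 245, 189.7, 232, 197 and 162 CPM in the model control and at 243, 239, 259.7, 343 and 311 CPM in wild type. No salviolone mouse reached the wild type range, and the salviolone mice overlapped the model control (-1.01 ± 0.19 against wild type, and -0.57 against the model control with a 95% interval of -0.95 to -0.19, adjusted p = 0.239). The striatum score was 5.92 to 6.29 with salviolone, 6.24 to 6.67 in the model control and 6.22 to 6.85 in wild type, and 3 genes fell without wild type mouse 5. For 4 of the 14 all salviolone mice lay below all model control mice, as for 1.22% of tested genes.

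Of 15 hippocampus genes, 7 fell and 1 rose (median -0.80), against 6 and 1 in the model control (median -0.75), and Calb1, a calcium-binding protein gene, fell by 0.82 ± 0.11. Of 11 cortical layer genes, 6 rose and 1 fell (median 0.52), also 6 and 1 in the model control (median 0.34). With salviolone 53.3% and 63.6% of these lists were called, where 17.8% of all tested genes were. Tbr1, a deep-layer transcription factor gene, was at 134, 145, 142, 140.5 and 136 CPM with salviolone and 104, 125, 71.4, 90.7 and 94.6 CPM in wild type. All salviolone mice lay above all wild type mice, of which mouse 2 was the nearest. Lamp5, an upper-layer gene, rose by 1.05 ± 0.18. Cortical layer genes rose in the comparison in which hypothalamus genes fell. With the hypothalamus covariate, 1 cortical layer gene rose, and 3 hippocampus genes and 1 striatum gene fell, with list medians of 0.26, -0.62 and -0.41. The part of dissection in these and the other results was not tested.

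**Figure D4:**
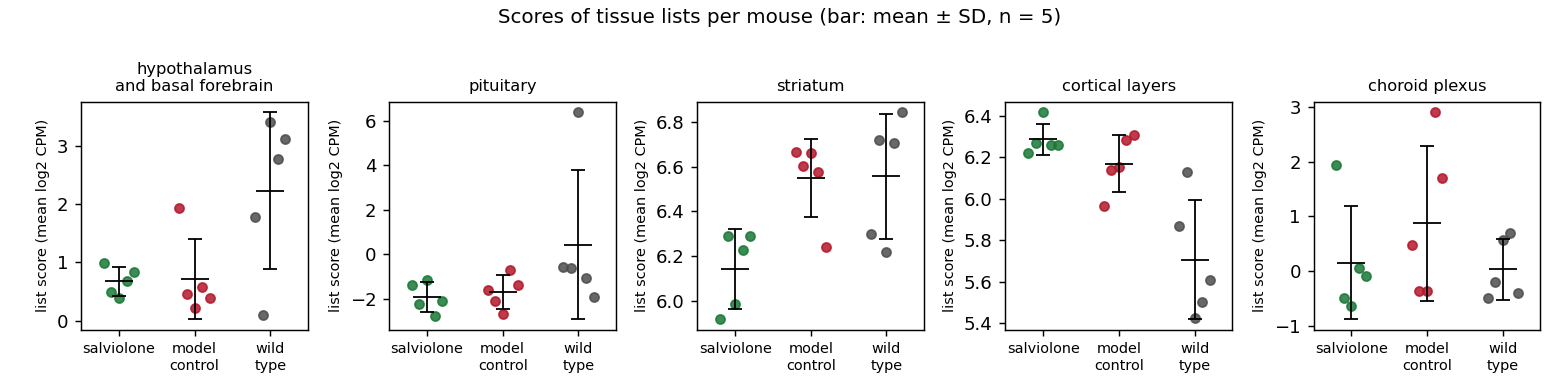
Scores (mean log2 CPM of a list's genes, vertical axes) of 5 tissue lists per mouse in salviolone, model control and wild type; points are mice and bars the mean ± SD (n = 5). Wild type mouse 3 has a pituitary score of 6.38, and 4 of 5 wild type mice have a hypothalamus score of 1.78 or more, against at most 0.99 with salviolone.

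Lists of other cell types are set against the 8.32% of all tested genes that rose and the 9.45% that fell. None of 12 thalamus genes was called in edgeR's test, and 2 had an unadjusted p under 0.05. Of 14 endothelial genes 1 fell (Itm2a, -0.36 ± 0.07), and of 12 mural genes 2 did (Notch3, -0.34 ± 0.09, and Cspg4), 1 without wild type mouse 1, 3, 4 or 5 or any salviolone mouse. Of 14 meninges genes Dcn, the decorin gene, fell (-1.35 ± 0.32). The choroid plexus score was 1.94 in salviolone mouse 1 and at most 0.06 in the other salviolone mice, against 2.91 and 1.70 in model control mice 4 and 5 and at most 0.69 in wild type, and of 15 genes Prlr fell. Without salviolone mouse 1 there were 3 lowered choroid plexus genes, and 0 without wild type mouse 3. Of 9 blood genes 1 rose, the globin gene Hba-a1, which has a near-identical copy, at 14 ± 13.7 CPM with salviolone and 2.02 ± 0.693 CPM in wild type, and 1 fell. The number that rose was 4 without salviolone mouse 2, 3 without salviolone mouse 5 and 0 without salviolone mouse 3 or 4 or any wild type mouse. Under the hypothalamus covariate no mural, meninges, choroid plexus or blood gene was called (medians -0.17, -0.16, 0.46 and 0.48). Among 11 genes that differ between strains C57BL/6J and C3H, 3 rose (Nnt, Ide and Glo1), where 8.32% of all tested genes rose. None did with the hypothalamus covariate or the 3 scores (medians 0.15 and 0.15, against 0.19). Nnt, a mitochondrial transhydrogenase gene with a disrupted allele in C57BL/6J, was at 24.8, 51.1, 46, 51.8 and 36.4 CPM with salviolone, 34.1, 25.3, 38.4, 36.7 and 33.9 CPM in the model control and at 25.1, 24.9, 24.2, 25.7 and 23.7 CPM in wild type. Salviolone mouse 1 and model control mouse 2 were at the wild type level and the other transgenic mice above it (0.77 ± 0.16, adjusted p = 0.00177). Nnt differed from wild type by 0.60 on the log2 scale with the hypothalamus covariate (adjusted p = 0.0824) and 0.62 with the 3 scores (adjusted p = 0.147).

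The 4 genes called between salviolone and the model control were all lower with salviolone. Muc6 (chromosome 7, 141213373 to 141241641), a mucin gene, was at 9, 9.62, 9.05, 10.0 and 11.9 CPM with salviolone, 15.8, 15.1, 17.1, 15.7 and 12.9 CPM in the model control and at 18.1, 13.9, 18.2, 13.9 and 15.2 CPM in wild type. All salviolone mice lay below all mice of both other groups (-0.63 ± 0.11 against the model control and -0.67 ± 0.11 against wild type). Col11a1 (chromosome 3, 113824189 to 114014367), a fibrillar collagen chain gene, was at 12.7, 10.8, 12.2, 16.8 and 17.7 CPM with salviolone, 20.2, 24, 30.9, 21.3 and 20.1 CPM in the model control and at 21.5, 22.4, 19.1, 21.3 and 20.6 CPM in wild type. Again no salviolone mouse reached the other groups (-0.73 ± 0.13 against the model control and -0.58 ± 0.13 against wild type). Fnbp1l (chromosome 3, 122332368 to 122413364), a gene of membrane bending and actin assembly, was at 119, 119, 117, 110.1 and 133 CPM with salviolone, 155, 149.9, 152, 139 and 146 CPM in the model control and at 144, 152, 143, 160.4 and 132 CPM in wild type. Salviolone mouse 5 overlapped wild type, and the differences were -0.31 ± 0.06 from the model control and -0.29 ± 0.06 from wild type.

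Muc6, Col11a1 and Fnbp1l are the 3 genes called in both comparisons, and none of them was called between the model control and wild type (-0.05 ± 0.11, 0.15 ± 0.13 and 0.02 ± 0.06). The fourth, Marf1 (chromosome 16, 13927037 to 13981215), a gene needed for oocyte meiosis in mice, was at 226, 215, 207, 208 and 214 CPM with salviolone, 254, 251, 249, 247 and 237 CPM in the model control and at 218, 233, 236, 214 and 217 CPM in wild type. Here salviolone overlapped wild type (-0.06 ± 0.04, adjusted p = 0.285), and the model control lay above both, by 0.15 ± 0.04 against wild type, while salviolone minus model control was -0.21 ± 0.04. Each of the 4 had an adjusted p of 0.0487 against the model control, close to the threshold. Over 26 other settings Muc6, Col11a1 and Fnbp1l were each called in 10 and Marf1 in 7, with adjusted p from 0.000516 or 0.000612 to 1.

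**Figure D5:**
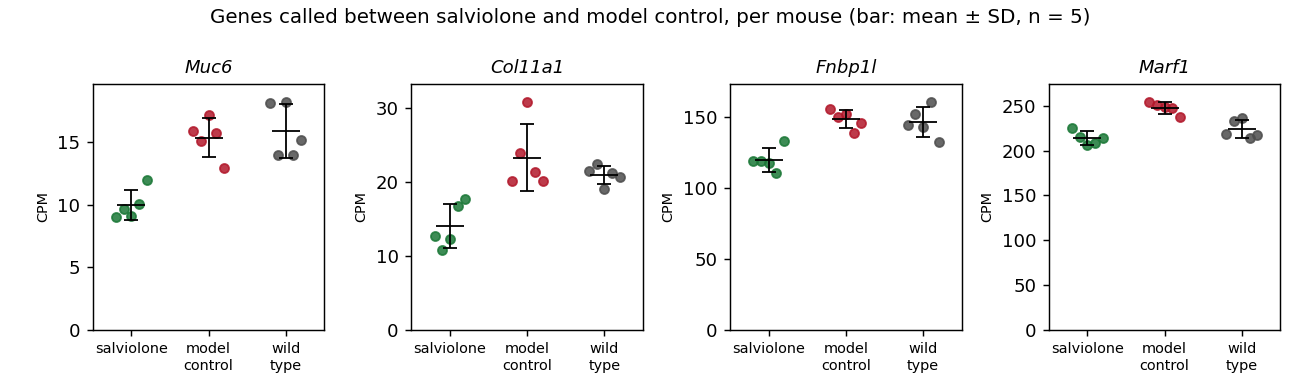
CPM per mouse (vertical axes, from 0) of Muc6, Col11a1, Fnbp1l and Marf1 in salviolone, model control and wild type mice; points are mice and bars the mean ± SD (n = 5). All 5 salviolone mice lie below all 5 model control mice in each panel, and for Muc6 and Col11a1 also below all 5 wild type mice.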

How the data were processed

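Cortex RNA was sequenced in 25 mice. Per the labels' protocols, libraries came from total RNA, with a SMARTER mRNA-Seq kit and a TruSeq RNA kit both given. Per the submitters' processing notes, Trim Galore and STAR were used with mm39. Annotation, strandedness, counting software and versions were not given in the sources used here. Raw counts per gene and FPKM were deposited by the authors. The gene length implied by count and FPKM varied between samples by a median CV of 0.177%. Multiples of 4 made up 44.3% of deposited counts between 4 and 39 (25% by chance), and the fit was also run on counts over 4.

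Of 21720 genes, 2769 were at 0 throughout, and filterByExpr (minimum count 10) kept 16515 with 99.99% of counts. All 25 samples entered 1 edgeR 4.0.16 fit (R 4.3.3, TMM, 1 coefficient per group), with robust two-sided quasi-likelihood F tests and Benjamini-Hochberg adjustment within each comparison, with calls under 0.05. Intervals are 95% and rest on the spread between mice. A count of 0 allows up to 3 counts, 0.0347 to 0.0505 CPM in the libraries of salviolone and wild type, which covers counting error only. The script was tested on simulated data.

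The 41 gene lists hold 626 names, 621 of them in the table. Named genes were App, Prnp, Cst7, Trem2 and Gfap, the 10 called genes per direction of smallest p with mean log2 CPM 1 or more (unnamed genes and pseudogenes passed over), up to 5 called members and 2 uncalled defining members of each list, and the genes called against the model control. Further called list members were chosen after their values were seen. Comparison, lists and rules were chosen with earlier results of these data known. Some genes and 1 transgene that the rules name are not reported here. Alternatives were RLE size factors, other filters, DESeq2 1.42.0, limma-voom and limma 3.58.1 on deposited FPKM as log2(FPKM + 0.1) or log2(FPKM + 1), only the groups compared, no mitochondrial genes, a replicate block, a 1.5-fold minimum, a hypothalamus covariate and each mouse left out. The 3 tissue scores as covariates and the fit without wild type mouse 3 and pituitary genes were chosen after seeing the data. Promoter windows are RefSeq's on GRCm38.p6, while gene coordinates are of mm39.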

Additional observations from a re-analysis of the deposited data

Results flagged for a closer look

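A mouse was looked at again when its gap to the nearest mouse of its group, divided by the group's range, was above Dixon's 95% critical value of 0.71 for 5 samples. Of 219 groups tested, 14 (6.39%) had such a mouse, and chance gives about 1 in 20. Among genes, App was at 1383 CPM in wild type mouse 3, below the other wild type mice, and Arc and Egr3 were at 394 and 192 CPM in wild type mouse 2, above the others. Dgkb was at 98.9 CPM in salviolone mouse 2 and Hap1 at 119 CPM in model control mouse 1, both above their group.

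Among list scores (mean log2 CPM), wild type mouse 3 stood apart for pituitary (6.38), ribosomal proteins (7.37) and endothelium (4.75), above its group, and for excitatory synapse (8.94), below it. In the salviolone group, mouse 1 stood apart for choroid plexus (1.94) and mouse 3 for cortical layers (6.42). In the model control, mouse 1 stood apart for hypothalamus and basal forebrain (1.93, above the others), mouse 3 for myelin (6.06, below) and mouse 5 for striatum (6.24, below).

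The differences from wild type of salviolone and the model control differ, by the test of salviolone against the model control, for Col11a1 (-0.73), Fnbp1l (-0.31), Marf1 (-0.21) and Muc6 (-0.63), as log2 fold changes.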

How the results depend on the processing

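Between salviolone and wild type the 2934 calls became 1873 with only these mice fitted, 751 with the hypothalamus score as a covariate, 417 with 3 tissue scores and 117 with a 1.5-fold minimum, and 2018 to 3623 with single mice left out. Between model control and wild type the 1913 calls became 349, 105, 30 and 10 under the same 4 settings, and 954 to 2928 with single mice left out (954 without wild type mouse 4, 1194 without model control mouse 2, 2928 without wild type mouse 2). The 4 calls between salviolone and the model control became 0 with RLE size factors, no filter, a 1 CPM filter, limma-voom, FPKM plus 0.1 without a filter, no mitochondrial genes, a 1.5-fold minimum or 3 tissue scores, 1 with only these mice, 7 with the hypothalamus score, 8 without wild type mouse 3 and pituitary genes, and 116 with DESeq2. With single mice left out they were 0 to 30 (30 without salviolone mouse 1, 16 without model control mouse 5). The cause of these changes was not tested. Fewer mice entered the fits of only the groups compared.

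The deviations of same-numbered mice from their group means gave no pairing: their correlations were -0.039 to -0.00852 between salviolone and wild type, -0.0921 to 0.0764 between model control and wild type and -0.0462 to 0.0807 between salviolone and model control, where salviolone mouse 5 alone of the 15 matches was closest to its own number. The mitochondrial share of counts fell in order from mouse 1 to mouse 5 in both transgenic groups. It was 0.620%, 0.580%, 0.434%, 0.424% and 0.409% with salviolone and 0.816%, 0.745%, 0.642%, 0.620% and 0.561% in the model control. In wild type it was 0.744%, 0.683%, 0.790%, 0.637% and 0.681%. The cause of this order was not tested. With a replicate block the calls were 2920 against wild type, 1903 for the model control and 29 between both transgenic groups.

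Of 155 named genes, 85 kept their status, called or not called, with the hypothalamus score as a covariate and 55 with 3 tissue scores. The log2 fold change of the pituitary gene Lhb ran from -5.39 without salviolone mouse 3 to 0.0165, reversed, without wild type mouse 3 (adjusted p = 0.994). RLE and DESeq2 scaling moved the median log2 fold change by at most 0.00298. Genes under about 0.05 CPM are at the limit of a library's depth.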
